A study of Homo sapiens with 6 samples.

Results

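The genes described here encode CTCF and 9 proteins of the cohesin machinery, namely the ring subunits SMC1A, SMC3, RAD21, STAG1 and STAG2, the loader NIPBL and MAU2, the releasing factor WAPL and the ring-associated regulator PDS5A. They were chosen by name, 10 of 20037 protein-coding genes with a GRCh38 position, and every listed CTCF or SMC1 peak that overlapped the gene body or 20 kb on either side was taken, which gave 51 of 65597 nuclear peaks. CUT&Tag, which uses an antibody to bring a DNA-cutting transposase to sites held by a protein, was performed in IMR90, human lung fibroblasts, with antibodies against CTCF and against SMC1. The 3 conditions per antibody were control cells, cells treated with inflachromene (ICM), a small molecule with HMGB proteins as its targets, and senescent cells at high passage. All 6 sample titles begin with I79, a label that is not explained, and no transgene, deletion or sort was named for any group. The number after p in the sample titles was 21 for the CTCF control, 16 for CTCF ICM, 34 for CTCF senescent, and 16, 16 and 34 for the matching SMC1 libraries. The CTCF library of ICM-treated cells was labelled with 6 days of treatment, whereas the SMC1 library carried no number of days. Because the CTCF control had a higher p number than the ICM-treated cells, passage and treatment cannot be told apart in that pair. The CTCF and SMC1 control libraries also differed in p number, so overlaps and summit distances between the antibodies in control compare cells of unlike p number. Each group was 1 library, so no comparison below has a replicate error or a p-value.

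The lists held 4673 (control), 6728 (ICM) and 8577 (senescent) nuclear CTCF peaks and 14883, 17809 and 12927 SMC1 peaks. A list holds the top 1% of regions of its library by signal, so a gene without a peak is one that was not listed, which is not the same as unbound. Sequencing depth behind a value is unknown, as the lists carry signal and no read counts. A common signal scale between libraries could not be established, and peaks are therefore given by their percentile within their own list, where 100 is the peak of highest total signal. Percentiles and presence also depend on how far down a list reaches, so each antibody's lists were additionally shortened, by total signal, to the shortest of them (4673 CTCF and 12927 SMC1 peaks), an alternative whose percentiles were added after the data had been seen. Of the 51 peaks, 43 stayed listed at equal length. The 8 that did not were the SMC1 peak of STAG2 in control, the CTCF peak of SMC3 in ICM and 6 further ICM peaks, namely of CTCF at the nearer place past MAU2 and of SMC1 at that same place, at the PDS5A promoter, inside STAG1, inside CTCF and past the end of CTCF. As a check of the cell type, 4, 3 and 3 of 5 fibroblast genes carried SMC1 promoter peaks in control, ICM and senescent cells (31.6%, 27.6% and 22.3% of all protein-coding genes). CTCF promoter peaks were at 1, 4 and 1 of them (8.76%, 12.6% and 9.55% of all protein-coding genes). The fibroblast gene COL3A1, the epithelial EPCAM and CDH1 and the leukocyte PTPRC had neither. Within 20 kb of the gene body an SMC1 peak was listed for 1 of the 2 epithelial genes in each SMC1 list and for PTPRC in control and ICM. A CTCF peak was listed there for 1 of the 2 epithelial genes in ICM and in senescent cells. For the endothelial PECAM1 no 5′ end was known, and its window held 1 listing, of CTCF in senescent cells. The markers thus describe listed peaks and not expression.

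Cohesin is a ring that holds DNA strands together and extrudes chromatin loops. SMC1A and SMC3 form the arms, RAD21 closes the ring, and either STAG1 or STAG2 binds to RAD21. NIPBL with MAU2 loads the ring and drives extrusion, WAPL with PDS5 proteins opens it, and CTCF, a zinc finger protein that binds a long DNA motif, halts extruding cohesin, so that CTCF and cohesin peaks often coincide. Occupancy of these proteins at their own genes says where they sat, and not how strongly the genes were transcribed.

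Among the promoters, STAG1 ranked high for both antibodies, while STAG2 carries similar motif letters and had no CTCF peak. The CTCF and PDS5A promoters had high-ranking CTCF peaks and no match to the motif letters in the bases searched. That search covered fewer bases than those peaks, and most of their summits lay outside it. The sequence upstream of these 4 genes is shown because their promoters span the range of what was found. Each is the 250 bases before the outermost RefSeq 5′ end (GRCh38.p14), written 5′ to 3′ on the strand of the gene, at chr3:136752379-136752628 (minus strand) for STAG1, chrX:123960310-123960559 (plus) for STAG2, chr16:67562276-67562525 (plus) for CTCF and chr4:39977912-39978161 (minus) for PDS5A. Capitals mark the core of the CTCF motif with position 8 left free (CC, 3 free bases, AG, 2 free bases, GGC) and the NRF1 motif (GCGC, 1 free base, TGCGC), which lies first in STAG1 and shares its 2 leading bases with the CTCF core in STAG2.
STAG1: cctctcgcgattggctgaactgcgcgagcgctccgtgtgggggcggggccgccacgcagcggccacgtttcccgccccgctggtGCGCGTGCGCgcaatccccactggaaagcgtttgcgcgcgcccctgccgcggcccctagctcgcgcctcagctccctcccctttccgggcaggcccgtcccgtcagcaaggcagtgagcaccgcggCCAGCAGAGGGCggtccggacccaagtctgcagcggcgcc
STAG2: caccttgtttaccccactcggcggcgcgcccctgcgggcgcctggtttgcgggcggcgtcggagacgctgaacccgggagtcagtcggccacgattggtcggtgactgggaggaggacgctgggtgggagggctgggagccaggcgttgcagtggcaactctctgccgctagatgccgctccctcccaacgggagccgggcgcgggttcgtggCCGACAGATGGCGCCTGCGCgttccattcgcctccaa
CTCF: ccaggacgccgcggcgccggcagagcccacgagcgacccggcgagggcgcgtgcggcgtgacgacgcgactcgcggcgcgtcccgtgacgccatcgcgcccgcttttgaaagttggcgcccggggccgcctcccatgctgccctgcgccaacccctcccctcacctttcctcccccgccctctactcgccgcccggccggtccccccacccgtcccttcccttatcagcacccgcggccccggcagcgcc
PDS5A: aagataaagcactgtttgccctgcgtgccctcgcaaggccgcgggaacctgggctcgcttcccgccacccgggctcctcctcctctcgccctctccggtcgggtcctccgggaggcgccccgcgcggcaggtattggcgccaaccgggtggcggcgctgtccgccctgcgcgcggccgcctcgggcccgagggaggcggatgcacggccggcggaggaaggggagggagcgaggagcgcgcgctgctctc

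Motifs were searched on both strands in the 300 bases from 250 before to 50 after each of 35116 RefSeq starts, which included 12 starts of 9 of the 10 genes and none of RAD21. The CTCF core with position 8 fixed as G was present in 4.64% of all windows and in windows of NIPBL and STAG2. With position 8 free, a form chosen after the sequences had been read, the share was 10.6% of all windows and STAG1 joined them. STAG1 then held CCAGCAGAGGGC at 40 to 29 bases before its 5′ end (chr3:136752407-136752418) and CCACCAGATGGC at 19 to 30 bases after it. STAG2 held, in the free form alone, CCGACAGATGGC at 37 to 26 bases before its 5′ end (chrX:123960523-123960534). In NIPBL the core lay on the opposite strand, read as GCCGCCTCCCGG on the strand of the gene, 173 to 162 bases upstream. The NRF1 letters were in 5.78% of all windows and in those of STAG1, STAG2 and WAPL, and the ETS letters CCGGAAG were in 10.3% of all windows and in those of SMC1A and NIPBL. The 250 bases before the outermost starts held 15 to 39 CpG dinucleotides, against a median of 16 (quartiles 5 and 25) before all protein-coding starts. A match is a run of letters and was not tested as a binding site. CTCF summits lay 198 and 60 bp inside the CTCF gene in control and ICM-treated cells and 365 bp upstream in senescent cells. At PDS5A they lay 85, 34 and 1358 bp inside in control, ICM and senescent cells. Of these, only the PDS5A summit in ICM-treated cells fell within the searched bases. Whether the motif lies elsewhere under these peaks was not tested.

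The genes of both arms of the ring carried SMC1 at the promoter in all 3 conditions. SMC1A (chrX:53374149-53422728, minus strand) had no CTCF peak in its window in any of the 3 lists, and the nearest CTCF summit lay 109, 105 and 59.5 kb from its 5′ end in the control, ICM and senescent lists. SMC1, the protein this gene encodes, was listed over its 5′ end. The summit, which is the midpoint of the region of highest signal, was 45, 45 and 42 bp inside the gene, so its position varied by 3 bp across libraries. The SMC1 peak was 1087, 857 and 1195 bp wide and ranked at percentile 42.5 in control, 53.8 in ICM and 64.1 in senescent cells by total signal. By highest signal the percentiles were lower, at 30.0, 35.0 and 40.1, and their order was the same. At equal list length the percentiles by total signal were 33.8, 36.4 and 64.1. RIBC1 starts on the opposite strand 145 bp upstream of SMC1A, within all 3 peaks, while the summits were nearer to the SMC1A start, and the ETS letters of SMC1A lay 60 to 63 bp from them.

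SMC3 (chr10:110567695-110606048, plus strand) had an SMC1 promoter peak in all 3 lists, with summits 392, 389 and 471 bp upstream of its 5′ end. Its total signal was 10753 in control, 4241 in ICM and 3461 in senescent cells in the units of each list, and its percentile was 84.2, 56.7 and 31.0. The percentile by highest signal was 90.8, 58.9 and 30.2, so by either measure the SMC3 promoter stood near the upper end of the control list and in the lower part of the senescent list. In lists of equal length it stood at 81.8, 40.3 and 31.0 by total signal. These summits were 2 to 84 bp from the start of the opposite-strand gene LOC105378483, and the part of either gene in the signal cannot be told apart. CTCF was listed at SMC3 in ICM-treated cells alone, as a peak of 2063 bp at percentile 9.64 with its summit 224 bp upstream, which places it among the lowest of its list, and it was not listed at equal length.

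RAD21 (chr8:116845934-116874776, minus strand) had no peak in its window in any of the 6 lists. No peak in any list was found for 29.1% of all protein-coding genes, and for 24% of the 8624 whose length lay within the range of the 10 genes (28.8 to 416 kb). The nearest peak was at the same place for both antibodies in all 3 conditions, between 108.3 and 108.5 kb from the RAD21 5′ end, beyond the 3′ end of the gene. There SMC1 ranked at 74.1, 69.1 and 43.8 and CTCF at 13.3, 49.2 and 55.8 in control, ICM and senescent cells.

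STAG1 and STAG2, of which a ring holds either, differed in how many lists held them. STAG1 (chr3:136336236-136752378, minus strand) had a promoter peak in all 6 lists. Its CTCF peak ranked at 94.6, 93.4 and 83.2 in control, ICM and senescent cells, with total signals of 68623, 89643 and 19006 in the units of each list. Its SMC1 peak ranked at 99.7, 98.8 and 88.3, by total signal the highest of all peaks in these windows within each SMC1 list. By highest signal it was at 87.4 in senescent cells, below the promoter peaks of CTCF (91.4) and MAU2 (89.6). The CTCF summits lay 72, 73 and 73 bp upstream of the 5′ end, and the SMC1 summits 73, 123 and 97 bp upstream. In control cells the summits of CTCF and SMC1 were 1 bp apart, and in ICM and senescent cells 50 and 24 bp. The CTCF core letters in capitals in the printed STAG1 sequence were centred 37 to 38 bp from the CTCF summit in each list. In the remaining 416 kb of STAG1 and its flanks the lists held 1 further peak, of SMC1 in ICM-treated cells, 402 kb into the gene at percentile 10.6. Its CTCF promoter peak stood at 94.6, 90.5 and 69.2 in lists of equal length.

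STAG2 (chrX:123960560-124102656, plus strand) had 1 peak in all, of SMC1 in control cells. It covered the 5′ end with a width of 1018 bp, its summit lay 184 bp upstream, and it ranked at percentile 6.38 by total and 0.682 by highest signal. The CTCF core letters of STAG2 were 152 bp from this summit. No CTCF peak was listed in the STAG2 window in any condition, and the nearest CTCF summits were 6100, 3710 and 3710 kb away in control, ICM and senescent cells. Chromosome X as a whole held 67 to 99 of the peaks of a CTCF list and 99 to 180 of those of an SMC1 list. The STAG2 peak was not listed at equal length.

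**Figure D1:**
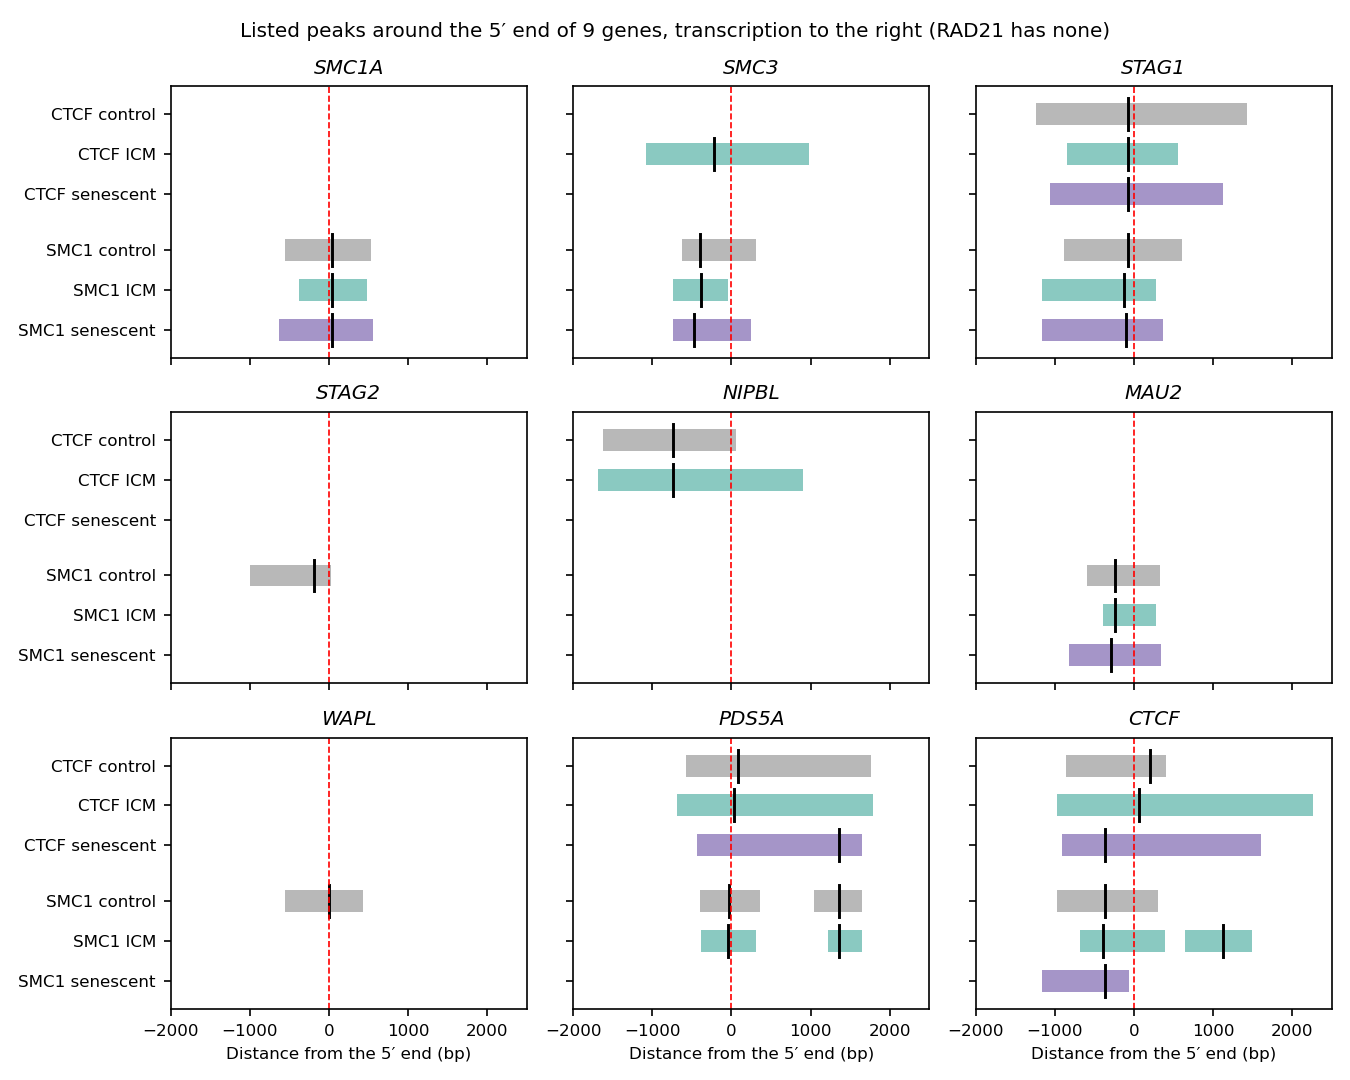
Listed peaks (bars) around the 5′ end (dashed line, transcription to the right) of 9 genes, with distance in bp on the horizontal axis, 1 line per library and a black tick at each summit. STAG1 carries peaks of both antibodies in all 6 libraries with summits within 123 bp of its 5′ end, STAG2 and WAPL show SMC1 in control alone, and the senescent CTCF summit of PDS5A is 1358 bp inside the gene.

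The loader subunits showed opposite patterns at their promoters. At NIPBL (chr5:36876769-37066413, plus strand) CTCF was listed in control and ICM-treated cells, at percentiles 29.3 and 57.2, with the summit at 741 bp upstream in both lists. By highest signal the same peaks ranked at 4.22 and 9.51, since they were wide (1684 and 2597 bp) and low. The summit lay within the body of NIPBL-DT, whose opposite-strand start is 75 bp upstream of NIPBL, and 573 bp from the CTCF core letters of that promoter. CTCF was not listed in senescent cells, and SMC1 was not listed at the promoter in any condition. The lists held 1 SMC1 peak in the NIPBL window, in senescent cells, 5.97 kb past the 3′ end at percentile 39.6.

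MAU2 (chr19:19320829-19358754, plus strand) held 15 of the 51 peaks in 4 places, the most of the 10 genes. At its promoter SMC1 was listed in all 3 conditions and CTCF in none. The SMC1 summits were 236, 237 and 291 bp upstream of MAU2 and 84, 83 and 29 bp from the opposite-strand start of SUGP1, a gene of a splicing factor, and the signal of the pair cannot be told apart. This promoter ranked at 37.9 in control, 63.2 in ICM and 85.8 in senescent cells by total signal, and at 40.1, 71.7 and 89.6 by highest signal. About 22 kb into the gene CTCF was listed in all 3 conditions, at 36.6, 72.5 and 79.4, with no SMC1 peak over it. Between 2.44 kb past the 3′ end and the outer edge of the window there were another pair of places. The nearer of them had CTCF in ICM (percentile 2.79) and senescent cells (79.4) with the identical summit, and SMC1 in ICM-treated cells at 1.83. The farther, 8.1 to 8.3 kb past the 3′ end, was in all 6 lists. There CTCF ranked at 8.77, 50 and 84.5 and SMC1 at 42.3, 77.0 and 61.7 in control, ICM and senescent cells. At equal list length CTCF stood at 36.6, 60.5 and 62.2 at the place inside the gene and at 8.77, 28.0 and 71.5 at the farther place past the 3′ end, so that ICM and senescent cells were nearly level at the former. The nearer place past the 3′ end was then listed for CTCF in senescent cells alone, at 62.3. SMC1 at the promoter stood at 28.5, 49.3 and 85.8 at equal length.

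**Figure D2:**
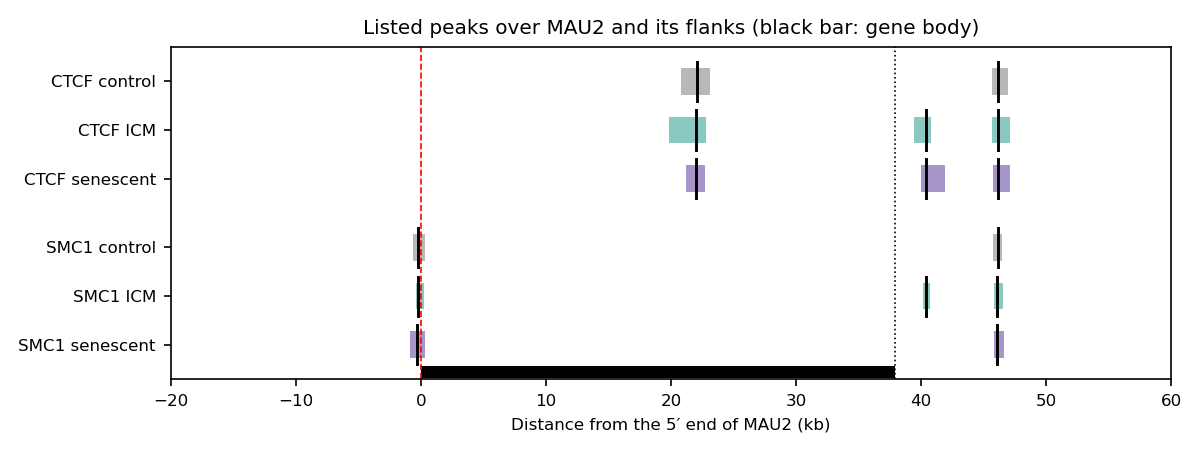
Listed peaks (bars, black tick at the summit) over MAU2 and 20 kb on either side, with distance from the 5′ end in kb on the horizontal axis and 1 line per library; the black bar is the gene body. SMC1 alone marks the 5′ end, CTCF alone marks the place about 22 kb inside, and all 6 libraries share the place about 46 kb from the 5′ end.

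WAPL and PDS5A, which act together in opening the ring, also differed. WAPL (chr10:86435256-86521792, minus strand) had 1 peak in all, of SMC1 in control cells, with its summit 3 bp inside the 5′ end and at percentile 35.7. CTCF was not listed in its window, and the nearest CTCF summit was 63.8 to 63.9 kb away in all 3 lists. WAPL-DT starts on the opposite strand 155 bp upstream, within the SMC1 peak.

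PDS5A (chr4:39822863-39977911, minus strand) had a CTCF peak over its 5′ end in all 3 lists, 2335, 2476 and 2077 bp wide, at percentiles 93.3, 96.5 and 85.9 in control, ICM and senescent cells. The summits were 85 and 34 bp inside the gene in control and ICM-treated cells. In senescent cells the summit was 1358 bp inside, so that this peak no longer counted as a promoter peak although it still covered the 5′ end. SMC1 was listed at 2 places under this CTCF peak in control and ICM-treated cells. At the 5′ end its summits were 28 and 47 bp upstream, at percentiles 36.0 and 24.9, and the other summit lay at 1355 bp inside in both lists, at 40.0 and 52.3. The second place ranked higher by highest signal, at 75.8 and 84.5. The CTCF summit of senescent cells was 3 bp from this inner SMC1 summit of the other conditions, but no SMC1 peak was listed at PDS5A in senescent cells. PDS5A was the 1 gene of the 10 without an opposite-strand start within 1 kb of its 5′ end.

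The CTCF gene (chr16:67562526-67639177, plus strand) had a promoter peak of its own product in all 3 lists and of SMC1 in all 3. The CTCF peak ranked at 95.1 in control, 95.8 in ICM and 82.3 in senescent cells by total signal. By highest signal it ranked at 97.2 and 94.6 in control and ICM, and at 26.8 in senescent cells, where the peak was 2514 bp wide with a highest value of 26 in the units of that list. Its summit lay 198 and 60 bp inside the gene in control and ICM-treated cells and 365 bp upstream in senescent cells. The SMC1 summits were 363, 387 and 365 bp upstream, so the distance between the CTCF and SMC1 summits was 561 bp in control, 447 bp in ICM and 0 bp in senescent cells. The SMC1 peak ranked at 95.7, 91.1 and 84.6, and in senescent cells it ended 61 bp before the 5′ end. CTCF-DT starts on the opposite strand 217 bp upstream and was the nearer start for the SMC1 summits. At equal list length the CTCF peak at the promoter stood at 95.1, 93.9 and 67.6. A further CTCF place about 15.3 kb upstream was listed in ICM (percentile 70.1) and senescent cells (84.3) and not in control. SMC1 in ICM-treated cells had 2 low-ranking extra peaks, 1128 bp inside the gene (1.74) and 3.11 kb past its 3′ end (15.5).

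**Figure D3:**
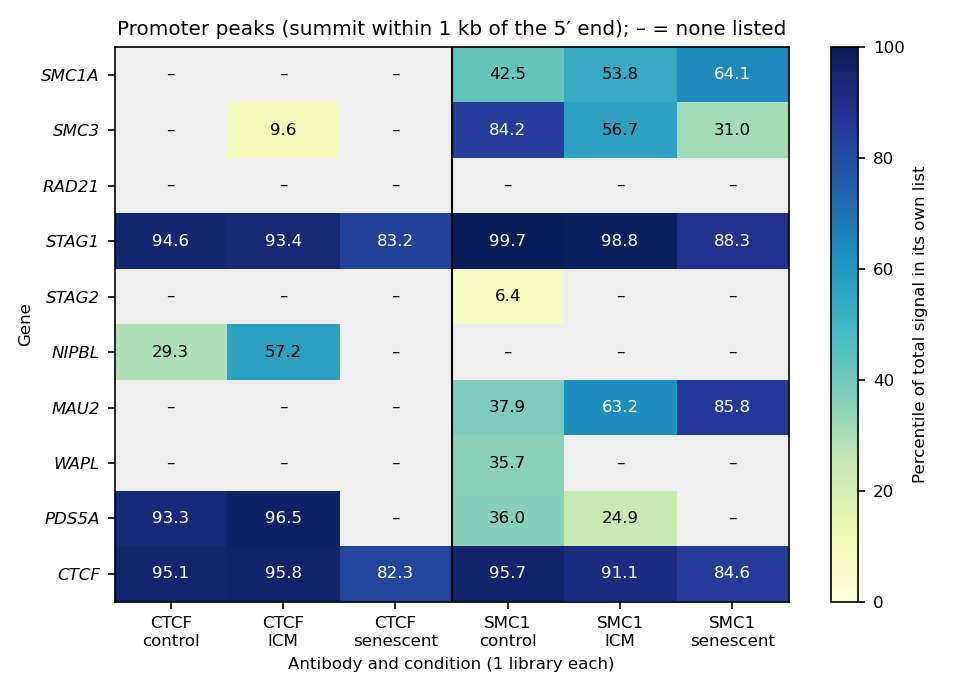
Percentile of total signal, within its own list, of the promoter peak of each gene (rows) in each of the 6 libraries (columns); a dash means that none was listed. STAG1 and CTCF are the genes filled in every column, with values from 82.3 to 99.7, and RAD21 is empty throughout.

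Counted over the 10 genes, SMC1 promoter peaks were present at 8 genes in control, 6 in ICM and 5 in senescent cells, where a promoter peak is one with its summit within 1 kb of the 5′ end. The share among 19675 protein-coding genes was 31.6%, 27.6% and 22.3%. CTCF promoter peaks were present at 4, 5 and 2 genes, against 8.76%, 12.6% and 9.55% of protein-coding genes. These shares were above the background in all 6 lists, but for CTCF in senescent cells this rested on 2 genes. SMC1 promoter peaks were also at 7, 3 and 5 of 10 condensin and SMC5/6 genes, and at 4, 4 and 2 of 13 other cohesin genes. The CpG counts before the outermost starts of the genes described here (15 to 39) lay mostly above the median of all protein-coding starts. The part of CpG content was not tested. Counted over the whole window, which grows with the gene, the numbers were closer to the background. CTCF was listed in 5, 6 and 4 windows against 31.1%, 39.9% and 42.8% of all genes and 28.2%, 39% and 41.7% of genes of like length. SMC1 was listed in 8, 6 and 6 windows against 57.9%, 58% and 51.6%, or 62.7%, 63.1% and 53.9% of genes of like length. SMC1A, RAD21, STAG2 and WAPL had no CTCF peak in any list, as had 52% of all genes.

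**Figure D4:**
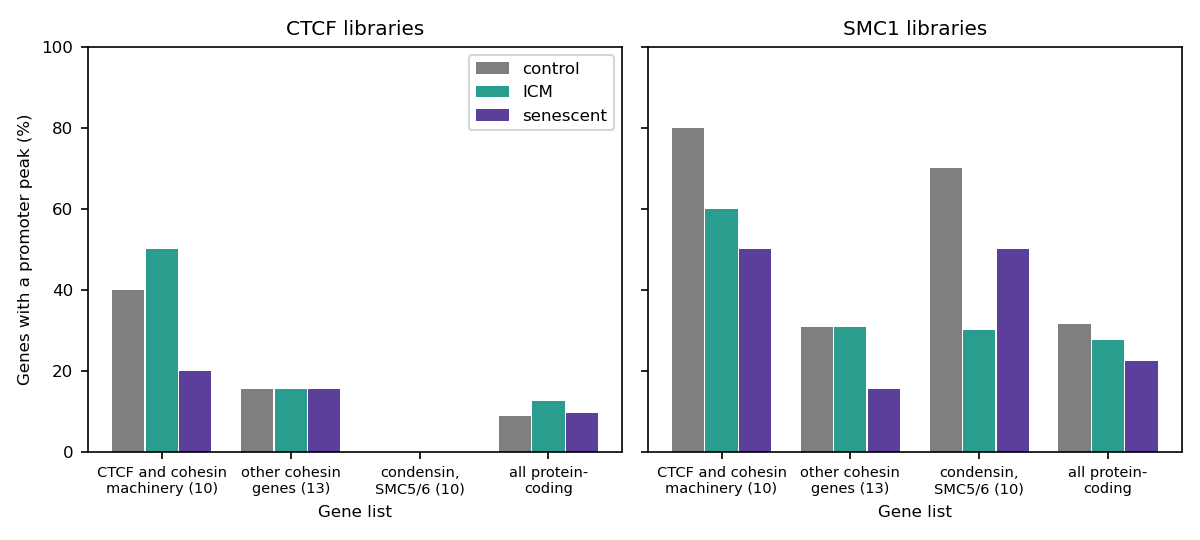
Percent of genes with a promoter peak (bars, from 0) in each condition for the 10 genes, 13 other cohesin genes, 10 condensin and SMC5/6 genes and all protein-coding genes, with CTCF libraries on the left and SMC1 on the right. The 10 genes stand above all protein-coding genes in every list. The condensin and SMC5/6 genes have no CTCF promoter peak and stand at 70%, 30% and 50% for SMC1 in control, ICM and senescent cells.

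Across conditions, 5 genes (CTCF, SMC1A, SMC3, STAG1 and MAU2) kept an SMC1 promoter peak in all 3 lists, against 17.6% of protein-coding genes. SMC1 was listed at the promoter in control and not in senescent cells for 3 genes, namely PDS5A, STAG2 and WAPL, against 11.9% of protein-coding genes, and for none of the 10 in the opposite direction, against 2.57%, nor was any in ICM alone, against 2.12%. Of these 3, PDS5A was also listed in ICM-treated cells (background of this pattern 6.98%), whereas STAG2 and WAPL were listed in control alone (4.92%). The distinction depends on list length, since at equal length PDS5A was listed in control alone and STAG2 in no list. These shares also depend on how many genes control listed. Of genes with an SMC1 promoter peak in control, 3 of 8 here were not listed in senescent cells, against 2341 of 6215 protein-coding genes, a nearly equal share. All 3 lists held 5 of these 8, against 3471 of the 6215. CTCF was at the promoter in all 3 lists at 2 genes, CTCF and STAG1, against 6.84%, and these were also the 2 genes with promoter peaks of both antibodies in all 6 lists, against 4.67%. PDS5A and NIPBL had CTCF promoter peaks in control and ICM-treated cells while none was listed in senescent cells (1.38%), SMC3 had its CTCF promoter peak in ICM alone (3.04%), and none of the 10 had one in control alone (0.325%). This makes 2 genes with CTCF at the promoter in control and not in senescent cells, against 1.71%, and 0 genes in the opposite direction, against 2.49%. Of genes with a CTCF promoter peak in control, 2 of 4 here were thus not listed in senescent cells, against 336 of 1724 protein-coding genes. The other 2 of the 4 were in all 3 lists, against 1345 of the 1724. No CTCF promoter peak was listed in any condition for 5 genes, against 85.7% of protein-coding genes, and no SMC1 promoter peak for NIPBL and RAD21, against 63.7%. The PDS5A case rests on the summit, as given above: counted by any part of the peak within 1 kb, CTCF was at 3 promoters in senescent cells.

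The median percentile of the CTCF promoter peaks was 94.0, 93.4 and 82.8 over 4, 5 and 2 peaks in control, ICM and senescent cells, while that of all CTCF promoter peaks was 57.2, 54.0 and 53.5. For SMC1 the median was 40.2, 59.96 and 84.6 over 8, 6 and 5 peaks, with 60.7, 61.5 and 60.01 for all SMC1 promoter peaks. In senescent cells the medians of the antibodies were thus close to each other, and the 2 CTCF peaks there stood far apart by highest signal, at 85.9 (STAG1) and 26.8 (CTCF). The SMC1 medians compare different genes, since STAG2, WAPL and PDS5A, which were not listed in senescent cells, had the lowest percentiles of the 8 in control.

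Among the 5 genes with an SMC1 promoter peak in all 3 lists, the difference in percentile between senescent and control cells was 47.9 for MAU2, 21.6 for SMC1A, -11.1 for CTCF, -11.4 for STAG1 and -53.2 for SMC3. All 3471 protein-coding promoters listed in the 3 SMC1 lists had a median difference of -6.01 with quartiles of -24.1 and 4.03. Between ICM and control the differences were 25.4 for MAU2, 11.3 for SMC1A, -0.880 for STAG1, -4.58 for CTCF and -27.5 for SMC3, against a median of -0.883 with quartiles of -10.5 and 6.28. Both comparisons share the control library, so their likeness for a gene is no second observation. At equal list length the senescent minus control difference was 57.3 for MAU2, 30.3 for SMC1A, -10.4 for CTCF, -11.3 for STAG1 and -50.8 for SMC3, and the ICM minus control difference was 20.9, 2.60, -7.29, -1.28 and -41.4 in the same order, against medians of -4.29 and -3.61 over 3132 promoters. Quartiles over these promoters were -20.9 and 6.38 for senescent minus control and -16.0 and 3.25 for ICM minus control. For the CTCF antibody, 1345 promoters were listed in all 3 lists, and the senescent minus control difference was -11.4 for STAG1 and -12.8 for the CTCF gene, against a median of 1.296 with quartiles of -10.5 and 12.4. By highest signal the difference was -70.5 for the CTCF gene and -9.47 for STAG1, against a median of -3.51 with quartiles of -19.6 and 7.83. At equal length the differences were -25.4 for STAG1 and -27.5 for the CTCF gene, and the median of the 912 promoters then listed was -7.53 with quartiles of -25.1 and 1.31, so the median also changed sign with list length. With 1 library per group, no spread between replicates stands behind any of these differences.

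**Figure D5:**
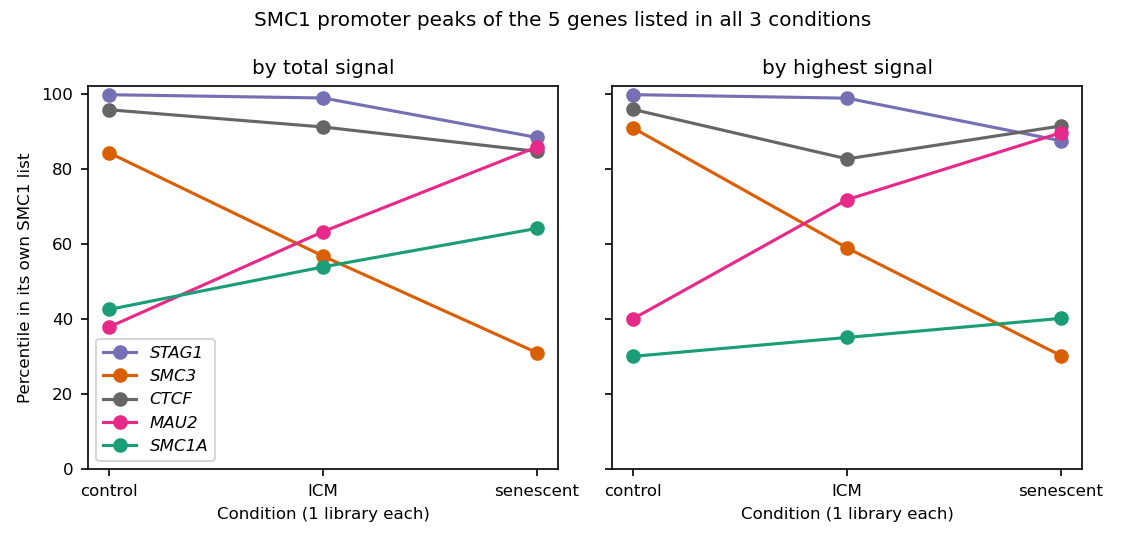
Percentile of the SMC1 promoter peak within its own list (vertical axis, 0 to 100) in control, ICM and senescent cells for the 5 genes listed in all 3, by total signal on the left and by highest signal on the right; each point is 1 library and lines join the points of a gene. SMC3 and MAU2 cross, from 84.2 to 31.0 and from 37.9 to 85.8 by total signal, and do so by highest signal as well.

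Peaks of the 3 lists of an antibody that overlapped by at least 1 bp were joined into places. CTCF had 9 places in the windows, of which 5 were in all 3 lists (55.6%, against 41.4% of 9720 places over the genome), 3 in 2 lists and 1 in a single list. SMC1 had 15 places, of which 6 were in all 3 lists (40.0%, against 36.5% of 22580), 2 in 2 lists and 7 in a single list. Of these 7, 4 belonged to ICM (2 at CTCF, 1 each at STAG1 and MAU2), 2 to control (the STAG2 and WAPL promoters) and 1 to senescent cells (past the end of NIPBL). The 4 of ICM ranked between 1.74 and 15.5 in the longest SMC1 list, and at equal length neither they nor the STAG2 promoter were listed, which left 10 places with 6 of them in all 3 lists. The share over the genome at equal length was not computed. Summits of the SMC1 places in all 3 lists were 3 to 82 bp apart between conditions, while those of CTCF were 1 to 1324 bp apart, with PDS5A at the upper end and STAG1 at the lower.

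CTCF peaks in the windows overlapped an SMC1 peak of the same condition in 4 of 6 cases in control (66.7%, 95% exact Clopper-Pearson interval 22.3 to 95.7%), 6 of 9 in ICM (66.7%, 29.9 to 92.5%) and 3 of 7 in senescent cells (42.9%, 9.90 to 81.6%). The intervals cover counting error only, treat peaks of 1 library as independent, and are too wide to tell these shares from those of all CTCF peaks, which were 75.8%, 72.6% and 50.2%. Conversely 5 of 10, 8 of 12 and 3 of 7 SMC1 peaks overlapped a CTCF peak, against 25.2%, 30.2% and 33.9% of all SMC1 peaks. SMC1 peaks under the same wide CTCF peak, as at PDS5A in control and ICM, were counted separately. No interval and no alternative overlap rule was computed for these converse shares. The CTCF peaks without SMC1 in control were the wide peak upstream of NIPBL and the place 22 kb into MAU2.

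Of 13 other genes of cohesin biology, 2 had a CTCF promoter peak in each list, ESCO1, which encodes an acetyltransferase of SMC3, and PDS5B, the paralogue of PDS5A. SMC1 was at the promoter of 4, 4 and 2 of the 13 in control, ICM and senescent cells. ESCO1 and PDS5B were in all 3 SMC1 lists, while the separase gene ESPL1 was listed in control alone, the securin gene PTTG1 in control and ICM, and the meiotic STAG3 in ICM alone. These differing peaks ranked low by total signal, at 26.7 for ESPL1, 3.33 (control) and 14.6 (ICM) for PTTG1 and 11.9 for STAG3. Presence in lists of equal length was not computed for these 13 genes or for the condensin and SMC5/6 genes, so these patterns may depend on list length. The condensin and SMC5/6 genes, whose products form related SMC rings, had a CTCF promoter peak at 0 of 10 in each list and an SMC1 promoter peak at 7, 3 and 5 of 10. An SMC1 promoter peak in control and not in senescent cells was found for 2 of 13 and 2 of 10, near the 11.9% of protein-coding genes, and the reverse for none, as may be read against the 2.57% of protein-coding genes. Of those listed in control these were 2 of 4 and 2 of 7, against 2341 of 6215 protein-coding genes.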

How the data were processed

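CTCF and SMC1 CUT&Tag was performed by the authors on IMR90 cells lightly fixed with paraformaldehyde, with 1 library per antibody and condition. Reads were aligned to hg38 with Bowtie2 (2.3.4.1) and handled with Picard (2.20.7), as given in the submitters' processing notes, and per the methods E. coli reads served for calibration. The deposited lists hold signal values, namely the coverage summed over each peak and its highest coverage, as called by the authors with SEACR (1.3, stringent, top 1%) in each library separately. All values were whole numbers, so calibration by a fractional factor is not visible, and signal was compared only by percentile within a list (ties take the mean rank). The study's further filter of CTCF peaks for a motif was not applied here. For the p34 libraries, whose titles give no condition, the senescent group follows from the series design (1 high-passage sample per antibody).

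Gene positions came from RefSeq (GRCh38.p14). The table holds no exons, so places inside genes were not assigned to an exon or intron. Strand came from RefSeq promoter sequences for 15842 and from GENCODE by symbol for 3833 protein-coding genes, including RAD21. The 5′ end was the outermost start. Peaks were assigned by overlap with the gene body and 20 kb on each side, and all 51 are described, with no test because each group has 1 library. Joined places needed 1 bp of overlap. A rank within shortened lists was added after the data were seen. Other alternatives were flanks of 0 and 50 kb, promoter distances of 500 bp and 2 kb, any part of the peak, any annotated start, the upper 50% of each list, lists of equal length, overlap by 100 bp summit windows or by 50% of each peak, and rank by highest signal. The steps were tested on simulated data. Python 3.11.15 with pandas 2.3.3, numpy 2.4.6 and scipy 1.17.1 was used. The genes, gene lists and motifs were chosen with earlier results of these data known.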

Additional observations from a re-analysis of the deposited data

How the results depend on the processing

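Of 94 alternative values, 74 stayed within the bounds set for them and 20 moved. The bounds differed by result: a set ratio for counts, the exact interval for shares, and no change at all for medians. Of the 20 that moved, 15 were medians. The intervals were so wide that a share of 33.3% in place of 66.7% counted as staying, so the tally does not measure stability. With only the upper 50% of each list by total signal, genes with a peak numbered 3 for CTCF control (5 with the whole list) and 3 for SMC1 control (8), and genes with an SMC1 promoter peak in control numbered 3 (8), so most SMC1 peaks of the 10 genes in control came from the lower part of that list. Joined by 100 bp summit windows, CTCF places in all 3 lists numbered 3 in place of 5. By 50% reciprocal overlap, 22.2% of the CTCF peaks in ICM-treated cells overlapped SMC1 in place of 66.7%. The shares in control, ICM and senescent cells were 33.3%, 33.3% and 28.6% with summit windows. They were 33.3%, 42.9% and 28.6% with the lists of both antibodies cut to 4673 peaks. That cut goes far below the 12927 SMC1 peaks used for equal length elsewhere. At 12927 SMC1 peaks no overlapping pair was lost in control or senescent cells, so their shares stay at 66.7% and 42.9%. The ICM share at that length was not computed. Shares over all peaks or places of the genome were not computed under these alternatives. An effect of the rule on all regions thus cannot be told from one at these genes. The median percentile over all peaks in the windows in control, ICM and senescent cells was 64.9, 70.1 and 83.2 (CTCF) and 41.1, 53.1 and 64.1 (SMC1). By highest signal it was 58.9, 66.4 and 76.9 for CTCF and 51.8, 47.0 and 76.9 for SMC1. Without flanks it was 93.3, 83.0 and 82.8 for CTCF, 40.0 in SMC1 control and 74.9 in SMC1 senescent cells. With lists of equal length, added after the data had been seen, it was 60.5 in ICM and 69.2 in senescent cells for CTCF and 33.6 in control and 49.3 in ICM for SMC1, since shortening removes the lowest-ranking peaks of the longer lists. The cause of the other shifts was not tested. The other alternatives moved counts of genes by at most 2. No paired analysis was possible because each group has 1 library, and for the same reason none could be left out. Depth limits absence calls: the lists hold only the top 1% of regions, and a place below that bound is not listed whatever its signal.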
